A study of Apis mellifera with 9 samples.

Results

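The circRNAs described here are the middle-span circRNAs of protein-coding genes in the honey bee worker ovary. They are the back-splice junctions whose listed source is a single protein-coding gene and whose 2 ends lie 1000 to 10000 bases apart in the genome. The rule uses annotation and position alone, with no measured level. It picked 4947 of 11794 listed junctions (41.9%), which is 51.0% of the 9703 circRNAs of coding genes, and they came from 1626 host genes. Their median span was 2818 bases. A further 63 junctions of such a span carry 2 source entries and 620 carry no source gene, and these were not members.

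The ovaries came from Apis mellifera workers aged 4 days. In all, 5 colonies with sister queens were kept, and brood frames stood at 34 °C and 80% humidity before the marked workers went back to their own colony. Each of 3 pools holds 40 ovary pairs from workers of a single colony, so a pool is also a colony, and colony and sample cannot be told apart. Every pool gave an RNA-seq library, an RNase R-treated circRNA library and a small RNA library (9 libraries), and the labels give 1 group with no treatment. The spread given throughout is that between these pools.

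A circRNA forms when the spliceosome joins a downstream 5′ splice site back to an upstream 3′ splice site, so that exons close into a ring with no free end. RNase R digests RNA from its 3′ end and spares such rings, which enriches them over linear transcripts, and the read that crosses the back-splice identifies each ring. The genomic distance between the joined sites includes any intron inside, so a span is not the length of the ring. Insect circRNAs are best known from nervous tissue, where they accumulate with age in Drosophila, and they often arise from long, multi-exon genes. Exon positions and genome sequence were not used here, and the sources do not name the genome build of the coordinates.

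Levels are SRPBM as the authors deposited them, back-spliced reads scaled to mapped reads. Every value was a whole multiple of a step of 10.8, 12.1 and 10.4 SRPBM in pools 1, 2 and 3, and the smallest value listed above 0 was 2 steps in each pool. Whether a step is 1 read is not known, so the depth is unknown and no counting interval is given. The median listed member stood at 51, 58 and 38 steps. Summed SRPBM over the table was 13817484, 16504579 and 13674720. The ovary label was checked in the RNA-seq libraries: 11 of 11 germ line markers, among them vas, nanos and aub, had a mean FPKM (fragments scaled to gene length and library size) of 1 or more, between 5.71 and 222. Markers of other tissues were present too. Of 7 muscle markers 6 reached an FPKM of 1, with summed levels of 964, 578 and 493 in pools 1 to 3, and all 4 fat body markers did, with sums of 688, 606 and 464. Of 4 gut markers 3 did, and their sums were 88.5, 2.57 and 4.20, so gut transcripts were high in pool 1. The germ line sums were 429, 651 and 668, lowest in pool 1. All 3 nerve markers reached an FPKM of 1, and 1 of 3 hypopharyngeal gland markers did. No marker of any list was at 0 on average, but the lowest, of the hypopharyngeal gland, was at 0.0068 FPKM. The part of these tissues in the circRNA levels was not tested, and more cells of a type and more RNA per cell cannot be told apart in pooled ovaries.

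The middle-span circRNAs carried about as much signal as all other listed junctions together, and more than either other span class. They were also the largest class, with 4947 junctions or 41.9% of those listed, and signal per junction was not compared. They took 52.5%, 52.6% and 51.5% of summed SRPBM in pools 1, 2 and 3 (52.2% ± 0.604, SD, n = 3). The shorter circRNAs of coding genes, 2360 junctions under 1000 bases, took 25.4% ± 0.661, and the 2396 longer than 10000 bases took 12.8% ± 0.448. Without the 10 highest junctions of the table the middle-span share was 49.6%, so whether it passes 50% rests on a few junctions. The share of the middle-span class was nearly the same in each pool although the summed signal was highest in pool 2.

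Detection differed more between pools than the share of signal did. It was highest in pool 3, where the SRPBM step was smallest (10.4), and lowest in pool 2, where the step was largest (12.1). The part of sequencing depth in this was not tested. SRPBM was above 0 for 3119 members in pool 1, 2865 in pool 2 and 3628 in pool 3, a mean of 64.8% ± 7.85 (SD, n = 3). The same mean was 62.2% ± 8.95 for short and 60.6% ± 8.04 for long circRNAs. Within each pool members had the highest share, with 63.0%, 57.9% and 73.3% in pools 1 to 3 against 60.8%, 54.0% and 71.7% of short and 58.3%, 54.0% and 69.5% of long circRNAs. Taken within pools, members exceeded short circRNAs by 2.58 ± 1.21 percentage points and long ones by 4.18 ± 0.529 (SD, n = 3), in 3 of 3 pools each, with no test made. A value above 0 in all 3 pools was listed for 1852 members (37.4%), 961 had it in 2 pools and 2134 (43.1%) in 1 pool alone. The share listed in all 3 was 34.1% for short circRNAs, 30.6% for long ones and 32.4% over the whole table.

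**Figure D1:**
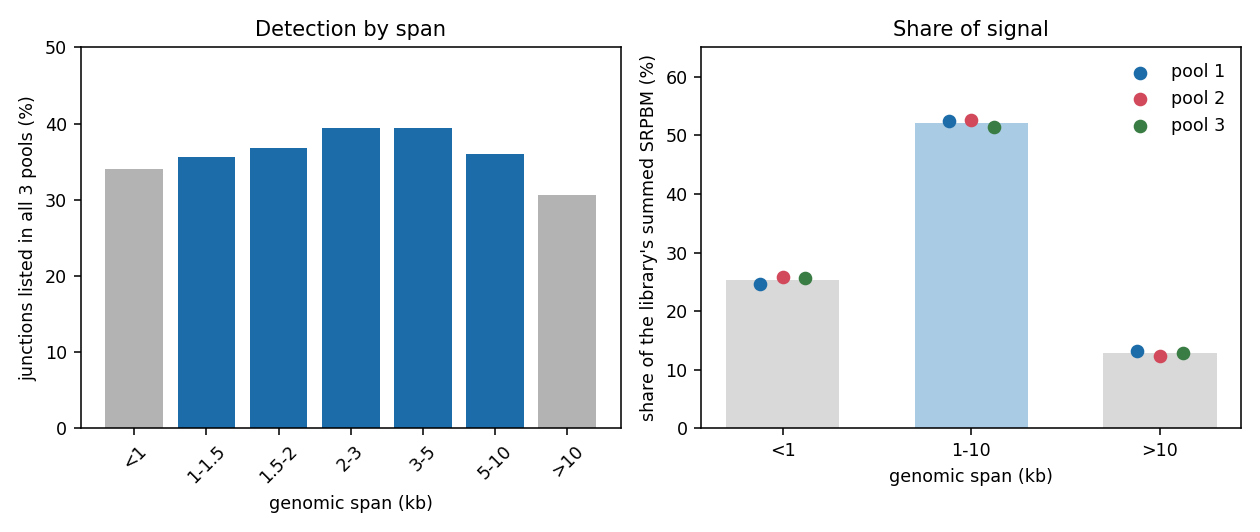
Left, the percentage of junctions listed above 0 in all 3 pools by genomic span in kb, with the middle-span class in blue and the shorter and longer circRNAs of coding genes in grey. Right, the share of each library's summed SRPBM in the 3 span classes, with the mean as a bar and each pool as a point. The middle-span class held 52.2% of the signal on average, and detection in all 3 pools was between 35.6% and 39.4% in its 5 span bins.

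Within the class, detection in all 3 pools changed little with span. It was 35.6% for the 1011 members under 1500 bases, 36.8% for the 661 from there to under 2000, 39.4% for the 951 to under 3000, 39.4% for the 1068 to under 5000 and 36.1% for the 1256 above that. The signal was spread over the whole range. Members under 1500 bases held 26.2% ± 1.26 of the class's signal, and those of 5000 bases or more held 22.1% ± 1.26.

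Members listed in all 3 pools were also the abundant ones, and held 93.3%, 95.0% and 92.9% of the class's signal in pools 1 to 3. Their median SRPBM was 1101, 1272 and 1024. Members listed in a single pool had medians there of 281, 277 and 178. A value of 0 was not confined to junctions near the smallest listed value. The 449 members at 0 in pool 2 alone had a median of 343 in the other pools and 18 of them were above 1000, while 359 were at 0 in pool 1 alone and 153 in pool 3 alone. Such a 0 is written below as listed at 0, since the files do not say whether it means no back-spliced read or a value withheld by a threshold.

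The median level, as log2(SRPBM + 1) over all junctions of a class with those listed at 0 included, was 8.02, 7.77 and 7.91 for members in pools 1 to 3. It was 7.69, 7.30 and 7.78 for short and 7.35, 7.06 and 7.39 for long circRNAs. Members were above the long class by 0.63 ± 0.10 log2 units (SD, n = 3) and above it in 3 of 3 pools. The exact permutation test, which flips the sign of each pool's difference (two-sided), gave p = 0.25, the smallest that 3 pools can give. Members were above the short class by 0.31 ± 0.17 in 3 of 3 pools, again with an exact p of 0.25. The latter difference depended on the junctions listed at 0. Among junctions above 0 in all 3 pools the members were lower than the short ones, by -0.16 ± 0.05.

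A few members carried much of the signal. The highest member took 3.60% ± 0.255 of the class's SRPBM, the top 10 took 17.4% ± 0.821, the top 100 took 48.5% ± 1.28 and the top 1000 took 87.7% ± 1.17 (SD over pools, n = 3). Mean SRPBM was 10000 or more for 133 members and under 100 for 1460. Of the 15 highest junctions in the whole table, 10 were members, beside 41.9% of all listed junctions.

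The most abundant member, ame_circ_0015567, came from LOC408536, described as angiotensin-converting enzyme-like, a family of peptidases that trim peptides from their C-terminal end. It lies on LG15 from 5368192 to 5375154 on the minus strand, inside a host of 54065 bases. SRPBM was 267681, 287331 and 267251 in pools 1, 2 and 3 (274088 ± 11471, SD, n = 3). The pools lay close together, and this ring held 96.0% of the SRPBM of the 14 members of its host.

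The second, ame_circ_0014927 (LG14, 7283962 to 7286062, minus strand), came from LOC410517, a FAM20C-like kinase of the type that phosphorylates secreted proteins. Its SRPBM was 132540, 210345 and 135605, highest in pool 2 with pools 1 and 3 close to each other. ame_circ_0012355 (LG11, 2179167 to 2180541, plus strand) came from LOC412839, the homeobox protein caupolican, an Iroquois transcription factor that patterns tissues in Drosophila. Its values, 131569, 186464 and 128502, had the same order of a high pool 2 and 2 similar lower pools. Its 3′ end lay 723 bases from the end of a host of 41234 bases.

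Uncharacterized hosts gave the next members in order. A ring of 5409 bases from LOC410006 (LG10, 3914376 to 3919784) had SRPBM of 127534, 169036 and 147512, and one of 8243 bases from LOC552005 (LG7, 640673 to 648915) had 131666, 127908 and 116230. In LOC552005 the order was different, with pool 1 highest. A second ring of the same gene, of 3091 bases, shares the end at 640673 and had 76358, 91869 and 69980. Together these 2 rings held most of the gene's member signal, 54.4% and 34.5%.

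Enzymes and RNA regulators followed. LOC413242, a heparan sulfate N-deacetylase/N-sulfotransferase that modifies matrix sugars, gave a ring of 1651 bases (LG10, 123222 to 124872) with SRPBM of 94895, 118705 and 116146. LOC725393, described as TIS11-like, belongs to a zinc finger family that binds AU-rich mRNAs and promotes their decay, and its ring of 1190 bases (LG13, 10032708 to 10033897) had 75862, 143949 and 69019. That pool 2 value was about 2-fold above the lowest pool, the widest ratio among the 15 highest members (2.09). LOC724389 encodes phosphodiesterase 1C, which breaks down cyclic nucleotides under calcium and calmodulin, and its ring of 1139 bases (LG6, 4057963 to 4059101) had 68709, 94028 and 88969.

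Of the remaining members of the top 15, a ring of 2546 bases came from LOC410204, described as titin-like, with 87925, 139703 and 97502. The others came from the abhydrolase domain gene LOC409665, the ZBTB20-like zinc finger gene LOC551432, the actin-binding LIM gene LOC726349, the zinc finger gene LOC100576993 and the uncharacterized LOC409655, with means between 56674 and 73583. Across the 15, the ratio of the highest to the lowest pool was 1.08 to 2.09, pool 2 was highest for 13 and pool 1 for 2. Spans ran from 1139 to 8243 bases, and 10 were 3000 bases or less. Host mRNA had a mean FPKM between 13.2 and 211.

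**Figure D2:**
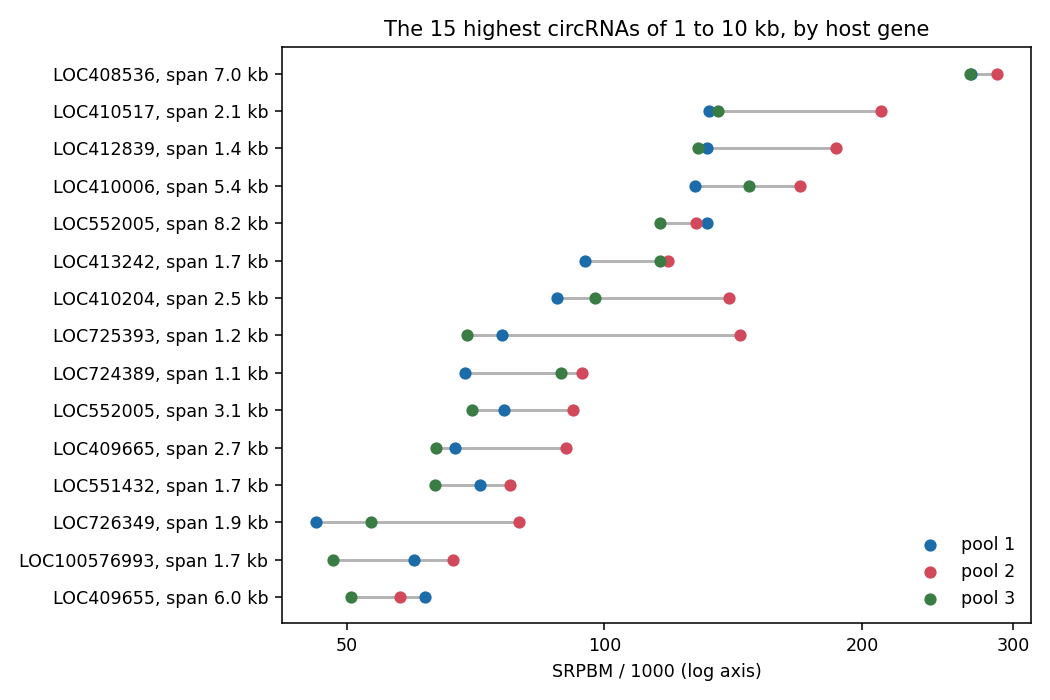
SRPBM (log axis, in units of 1000) of the 15 members with the highest mean, each labelled with its host gene and span, with a point for each pool and a grey line from the lowest to the highest pool. Pool 2 is highest for 13 of the 15, and the member of LOC408536 lies apart from the rest at 267251 to 287331.

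Levels of individual members varied widely between pools, as they did over the table. Of 2732 members with a mean SRPBM at or above the median of all junctions (171), 1836 (67.2%) had a highest pool at least 2 times the lowest, beside 69.8% of all junctions tested. Of these, 892 were listed at 0 in a pool. Among the 1852 members above 0 in all 3 pools, 955 (51.6%) passed the same fold, beside 53.4% of all such junctions. Both shares were close to the background, and each pool is 1 library, so no test was possible. The highest pool of the 955 was pool 2 for 491, pool 1 for 285 and pool 3 for 179. Among members in all 3, the median log2 ratio was 0.24 for pool 2 over pool 1 and 0.34 for pool 2 over pool 3. Over all junctions in all 3 pools these medians were 0.23 and 0.30, and the log2 ratios of summed SRPBM were 0.26 and 0.27. Pearson's r of log2 SRPBM between pools was 0.823 to 0.859 across these 1852 members, as a description.

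Abundant members differed less often, as abundant junctions of the whole table did. A mean at or above the 90th percentile of members (2651 SRPBM) was reached by 495, of which 490 were above 0 in all 3 pools and 112 (22.6%) had a 2-fold or wider range, beside 22.7% of all junctions at that level. Among those above 0 in all 3 pools, the widest range was that of the only member of LOC100577472, described as ISL-1-like, a LIM homeobox factor of motor neurons and endocrine cells in vertebrates. On an unplaced scaffold, this ring of 5060 bases had SRPBM of 13552, 1664 and 3113, an 8.14-fold range, and its host mRNA had FPKM of 3.83, 0.574 and 0.490. Circular and linear RNA were both highest in pool 1, the pool in which gut markers were high. Whether the 2 are related was not tested.

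A ring of 1036 bases from Dop3, the D2-like dopamine receptor, had 1208, 6175 and 1891, a 5.11-fold range with pool 2 highest. Its host mRNA was low, at 0.709, 1.21 and 2.42 FPKM, and highest in pool 3. The LSAMP-like gene LOC409707, an immunoglobulin adhesion protein, gave a member with 2147, 5259 and 1065, again highest in pool 2. A lachesin-like gene of the same superfamily, LOC725619, gave one with 1122, 4221 and 4637, low in pool 1 alone. The croquemort gene LOC410982, a CD36-type scavenger receptor that takes up apoptotic cells in Drosophila, had a member with 1295, 3835 and 5191, also lowest in pool 1. The ring of LOC411048, which encodes a sestrin, a regulator of stress and TOR signalling, had 2233, 4909 and 1232. The uncharacterized LOC100577522 and LOC412476 completed this group of 8 with ratios of 3.89 and 3.87, and both were highest in pool 2.

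Of the 495 abundant members, 4 were listed at 0 in 1 pool. A ring of 9304 bases from LOC408958, an uncharacterized C20orf112 homolog, had 7779 and 8527 in pools 1 and 2 and was listed at 0 in pool 3. The other 3 were listed at 0 in pool 2. They came from the Sox-10-like gene LOC727284 (4402 in pool 1 and 5755 in pool 3), the Dscam-like adhesion gene LOC408688 (6182 and 3102) and the ADAMTS9-like metalloproteinase gene LOC412091 (4370 and 4042). Host mRNA was present in the pool with the 0 in each case, with FPKM of 25.6, 22.8, 7.65 and 119 in the order named. Another abundant member was listed in 1 pool alone.

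At the span limits, the members just inside 1000 bases were a ring of exactly 1000 from the scavenger receptor gene LOC413408, with 2341, 0 and 178 SRPBM, and one of 1001 from LOC550870, with 162 in pool 1 only. Just outside, both of 999 bases, the sorbitol dehydrogenase-like LOC408871 had 282 in pool 3 only and fasciclin-2 (LOC409849) had 647, 1845 and 574. At the upper limit, rings of 9985 bases from laminin alpha-1-like LOC410775 and 9980 from LOC409792 were listed in pool 3 alone at 449 and 188. Those of 10002 bases from LOC725964 and 10010 from LOC726101 were listed in a single pool at 518 and 136.

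The circRNAs were gathered in the 3′ part of the genomic span of their hosts. Position could be read for 4892 members that lie within and on the strand of their host. The median distance from the 5′ end of the host to the ring was 30145 bases, against 8542 bases from the ring to the 3′ end. The upstream flank was the longer for 3652 of them (74.7%), with the midpoint at 73.8% of the host at the median. In 10 equal bins along the host, the share of midpoints was 2.11% in the bin nearest the 5′ end and 21.8% in the one nearest the 3′ end. The signal was placed alike, with 71.0%, 72.1% and 70.6% of the SRPBM in rings whose longer flank was upstream. Only 30 rings began at the host's first base and 9 ended at its last.

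The pattern was not confined to members. The upstream flank was longer for 68.8% of short and 69.5% of long circRNAs, and no test was made of these differences. Members of a host share its structure, so hosts were counted as well: in 1090 of 1606 hosts (67.9%) most members had the longer flank upstream. The share rose with host span. It was 57.9% of rings in hosts under 20000 bases, 71.0% up to 50000, 79.4% up to 100000 and 87.0% in longer hosts. Rings per host over the same bins were 1.67, 3.19, 3.95 and 4.98. Distances are in genomic bases without exon positions, so an even split of flanks is not an expected value. Listed host spans take in every annotated transcript start. The parts of exon placement and of alternative first exons were not tested.

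**Figure D3:**
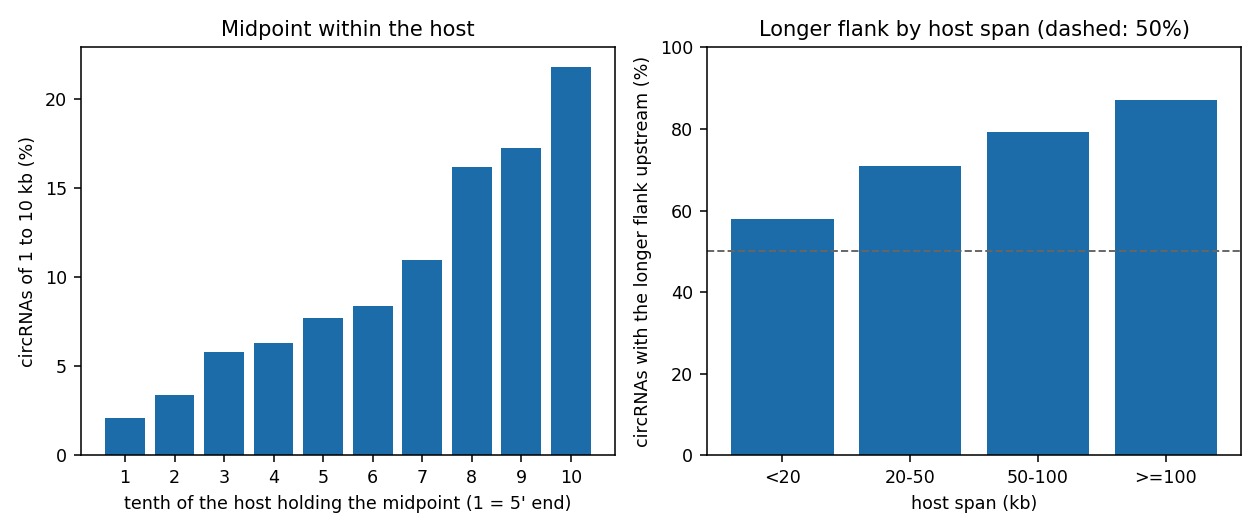
Left, the percentage of 4892 members whose midpoint falls in each of 10 equal bins of the host, from the 5′ end (1) to the 3′ end (10). Right, the percentage with the longer flank upstream by host span in kb, with a dashed line at 50% that is not an expected value. The share of midpoints climbs from 2.11% to 21.8%, and the longer flank is upstream for 57.9% in the shortest and 87.0% in the longest hosts.

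Many members use the same splice sites. A 5′ end was shared with another listed junction by 3013 members (60.9%), a 3′ end by 2724 (55.1%) and at least 1 of the ends by 3946 (79.8%). Among short circRNAs the last share was 66.4% and among long ones 95.3%. Where 2 members share the 5′ end, 2057 pairs, the shorter ring was the higher in 53.5%, 55.9% and 57.3% of pairs that differed in pools 1 to 3. Where 2 share the 3′ end, 1588 pairs, this was 48.3% ± 0.698. Both shares were near an even split, above it in 3 of 3 pools for a common 5′ end and below it in 3 of 3 for a common 3′ end. Pairs of the same cluster overlap and are not independent.

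A 5′ end of a member was used by up to 14 listed junctions of any class, and a 3′ end by up to 11. Among members alone, the most reused 5′ end was in LOC408579, a thrombospondin type-1 domain protein of the matrix. There, 8 members of 2929 to 8351 bases begin at LG1 position 20479380. Their mean SRPBM came to 48443, of which a single ring gave 25571. The abundant ring of LOC408536 shares its 5′ end with 6 other members, and the 7 together came to 283701. In Foxp, a forkhead transcription factor gene, 7 members of 2756 to 9585 bases share a 5′ end and came to 19953. The most reused 3′ ends among members were in LOC410553, with 8 members, and LOC726349, with 7. Several with 6 followed, among them 1 in LOC409780, a CELF-type splicing regulator gene.

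Among the 1626 hosts, 735 (45.2%) gave a single member, 577 gave 2 to 4, 237 gave 5 to 9 and 77 gave 10 or more. The last held 1133 members, 22.9% of the class. The number of members rose with host span, with Spearman's rho of 0.45 across hosts as a description. Where a host gave 2 or more members (891 hosts), the highest took a median of 67.9% of the host's member SRPBM. It took over 90% in 154. With few members the highest holds a large share by arithmetic alone, and 577 of these hosts gave 2 to 4. A short circRNA also came from 881 hosts and a long one from 515, while 630 gave neither.

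The hosts with most members were LOC410553, LOC409665, LOC726349 and Foxp, and 3 hosts shared the next place with 24 members each. LOC410553, transcription factor 12, a basic helix-loop-helix factor, gave 33, of which 18 were listed in all 3 pools. Its members' summed SRPBM was 40310, 58846 and 44495, and no single ring dominated, since the highest held 19.9%. That ring of 1149 bases had 6927, 11699 and 9975. Apart from a small group that starts 13447 bases into the host, the rings lie in the last stretch of its 81861 bases, and 30 of 33 had the longer flank upstream. They use 11 different 5′ ends and 12 different 3′ ends.

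LOC409665 gave 31 members, 17 of them in all 3 pools, from 29645 to 47184 bases into a host of 52404 bases. All 31 had the longer flank upstream. Its ring of 2745 bases (66874, 90277 and 63598 SRPBM) held 69.0% of the sum, and its next, of 1124 bases, had 13174, 16729 and 10309. LOC726349, an actin-binding LIM protein gene, gave 28 from 8 different 5′ and 13 different 3′ ends in a host of 24296 bases. A ring of 1876 bases with 46061, 79482 and 53331 held 61.2% there. Foxp gave 28, with 11 in all 3 pools and sums of 34484, 45518 and 30739 in a host of 235294 bases. Of the 3 hosts with 24 members, the matrix gene LOC408579 had sums of 57379, 51537 and 54992. The CELF-type splicing regulator gene LOC409780 had 41885, 60498 and 47545, and the uncharacterized LOC408779 had 23025, 15752 and 16189. Pool 2 was highest in 5 of these 7 hosts, and pool 1 in LOC408579 and LOC408779.

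**Figure D4:**
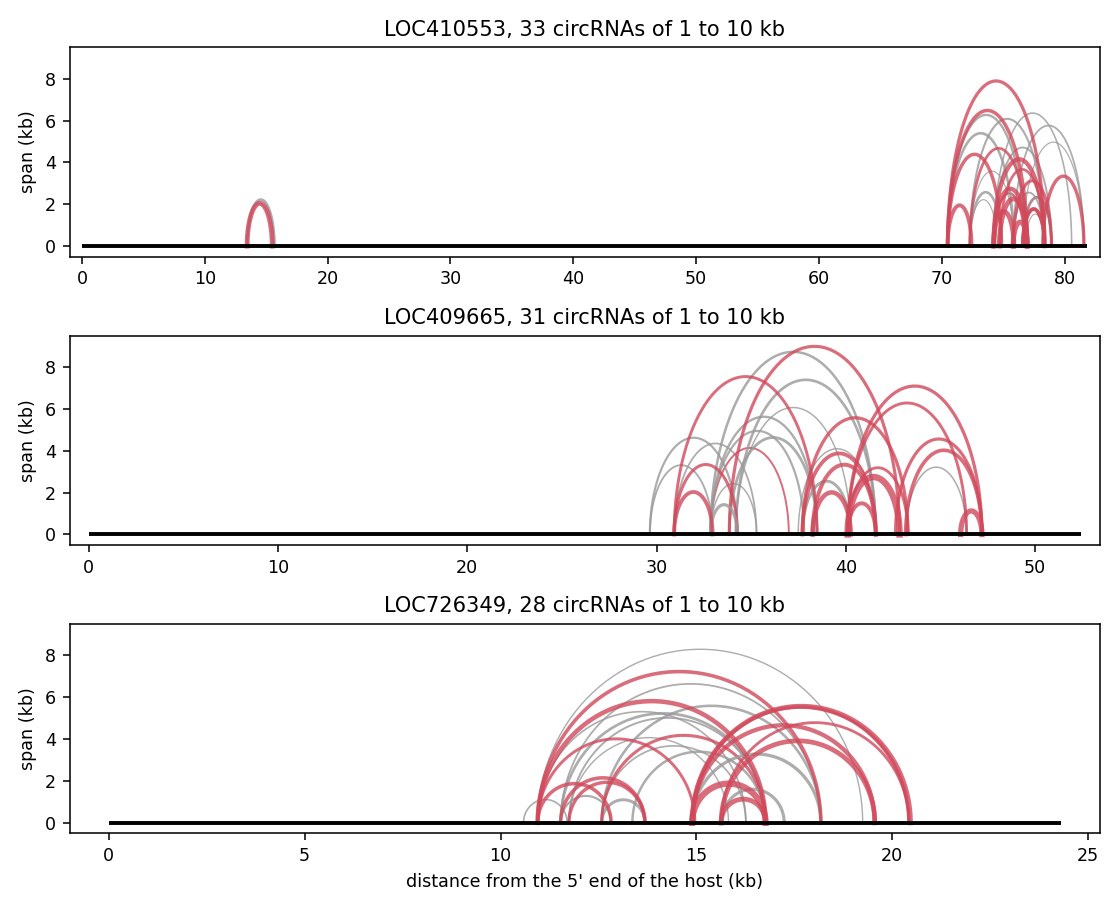
Members of the 3 hosts with most of them, drawn as arcs that join the ends of each ring along the host (black line, distance from the 5′ end in kb), with arc height equal to the span in kb and a wider line for a higher mean SRPBM. Red arcs were listed above 0 in all 3 pools (18, 17 and 14 members) and grey arcs in fewer. In LOC410553 all but a small group lie close to the 3′ end, and in LOC409665 none starts in the first 29645 bases.

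Hosts were long genes. Members came from 1.58% of coding genes of 1000 to under 5000 bases, 19.5% of those to under 20000, 60.2% of those to under 50000 and 75.6% of longer ones, and from 16.7% of all 9712 coding genes long enough to hold one. In mRNA level, the difference between hosts and other coding genes changed sign between pools. The difference of the median log2(FPKM + 1) was -0.07, 0.17 and 0.04 in pools 1 to 3 (0.04 ± 0.12, SD, n = 3), with p = 0.75 by the same exact permutation test.

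Within classes of gene span, hosts had the higher median in every pool. For genes of 20000 to under 50000 bases, host medians were 15.5, 17.8 and 18.0 FPKM in pools 1 to 3 against 5.96, 4.97 and 5.37 in other genes. In genes of 50000 bases or more they lay between 10.2 and 11.5 against 1.98, 2.06 and 2.43. Among coding genes of 10000 bases or more, hosts were above the others by 0.83 ± 0.09 log2 units in 3 of 3 pools. This subset was chosen after the data were seen, and p was 0.25 by the exact permutation test, the smallest possible. A listed ring needs a transcript, so the definition of a host favours this direction, and the p is not independent support. No FPKM filter was applied by gene span. Over all gene spans, genes with a mean FPKM of 1 or more gave a difference of -0.10. In hosts and in other genes alike, the medians were lowest in genes of 50000 bases or more.

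**Figure D5:**
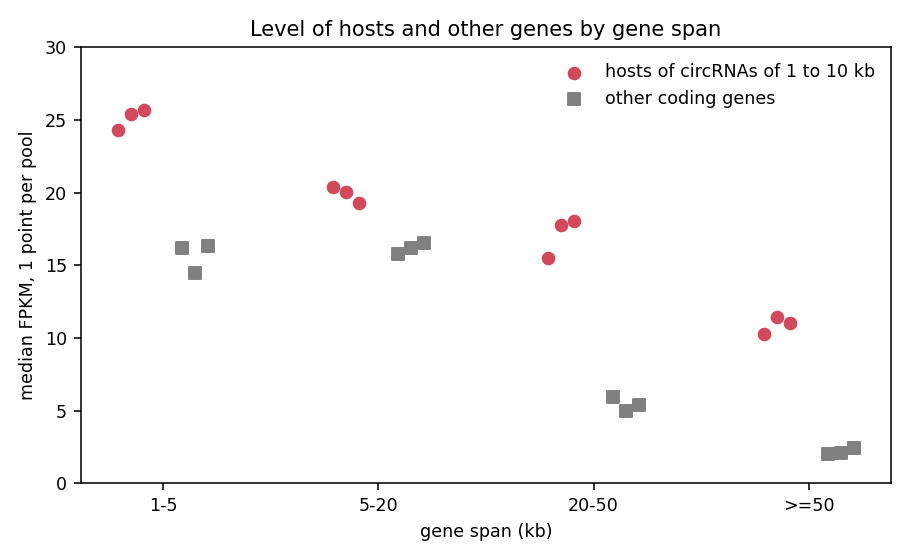
Median FPKM of hosts of middle-span circRNAs (red circles) and of the other coding genes (grey squares) by gene span in kb, with 1 point per pool. Hosts lie above the other genes in each span class, at 10.2 to 11.5 against 1.98 to 2.43 FPKM in the longest.

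Within the class, Spearman's rho between the level of a ring and the FPKM of its host was close to 0. Across 4947 members it was 0.065, 0.059 and 0.061 in pools 1 to 3, and 0.144, 0.122 and 0.151 across the 1852 listed in all 3, with host values shared among rings of a gene. Of the hosts, 152 had a mean FPKM under 1, and 56 members listed in all 3 pools came from such hosts. A ring of 2149 bases from Br-c, the broad-complex gene of the ecdysone response, had 4208, 6344 and 4481 SRPBM beside host FPKM of 0.568, 0.551 and 0.723. The nuclear hormone receptor gene LOC408586 (HR3), also part of that response, gave a ring with 6312, 2352 and 2653 and had 0.644, 0.341 and 0.406 FPKM. The gene of nephrin, an immunoglobulin adhesion protein (LOC411078), gave 3496, 4125 and 2152 with 0.627, 1.08 and 1.07 FPKM. These rings were abundant although their host mRNA was near or under 1 FPKM.

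At the other end, 15 hosts had a mean FPKM of 500 or more, which is 17.2% of the 87 coding genes at that level, beside 16.7% of all. The uncharacterized LOC408421 had 1093, 1703 and 1221 FPKM, and its rings, of 1253 and 1792 bases, were listed in all 3 pools, the former at 1014, 1496 and 752 SRPBM and the latter at 1079, 1134 and 345. RpS3a (LOC413296) had 1315, 1504 and 1425 FPKM, and its ring of 1291 bases was listed at 0, 0 and 313. The 2 rings of EF1a-F2, the elongation factor 1-alpha gene, were each listed in a single pool, at 146 and 539. LOC408961, the apolipophorin gene of lipid transport, had FPKM of 469, 740 and 727 and gave 4 rings, of which that of 1703 bases had 1446, 1098 and 836 and the others were listed in a single pool each.

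The hosts were grouped into 14 lists by product name, and each list is given by the number of its genes that host a member, beside 16.7% over all 9712 coding genes and 54.1% of the 2471 that span 10000 bases or more. Shares were highest for adhesion and cyclic nucleotide genes and lowest for ribosomal protein genes. Of adhesion and matrix genes 40 of 78 (51.3%) were hosts, and of ion channel and synapse genes 59 of 158 (37.3%). Of genes named as protein kinases or kinase-associated, 54 of 178 (30.3%) were. Among genes of 10000 bases or more these shares were 73.1%, 63.1% and 70.6%. Of ribosomal protein genes, 1 of 121 was a host, and their median span was 1432 bases. The order of lists followed gene span in part, since the median span was 27831 bases for adhesion genes and 4234 for all.

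The germ line and maternal list, matched by name, includes regulators of egg and germ cell mRNA. Of its 18 genes 7 were hosts (38.9%), with 19 members, and of the 6 that span 10000 bases or more 5 were (83.3%). The highest was a ring of 1199 bases (LG7, 4108566 to 4109764) from LOC724704, a CPEB-type protein that controls poly(A) length and translation. Its SRPBM was 35832, 58629 and 45759, highest in pool 2 and lowest in pool 1, the order its host mRNA had as well (18.0, 31.1 and 28.6 FPKM). Pumilio (LOC408298), a translational repressor of maternal mRNAs, gave rings of 2744 bases with 7380, 6839 and 5901 and of 6052 bases with 2643, 2050 and 2340, which share an end at LG10 position 11198612.

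Among RNA-binding and splicing genes, 22 of 104 (21.2%) were hosts, with 96 members, and 19 of 28 (67.9%) of those of 10000 bases or more. A ring of 1662 bases from LOC551587, an RBM24-like protein gene, was highest, with 18709, 29984 and 23187. LOC409780, the CELF-type gene, gave 16994, 18067 and 17359 for its ring of 2444 bases, a narrow range. A ring of 8871 bases from the same gene had 9991, 15860 and 11082.

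In the hormone and growth list 17 of 44 genes (38.6%) were hosts, and 16 of 26 (61.5%) of those of 10000 bases or more. The insulin-like receptor gene InR-2, whose pathway links nutrition to ovary growth in insects, gave a ring of 1375 bases (LG2, 13980161 to 13981535) with 17738, 32287 and 24723 SRPBM, highest in pool 2. A second InR-2 ring, of 5780 bases, had 2870, 3956 and 1859. The patched-like gene LOC100576449, a Hedgehog receptor, gave 4931, 3667 and 2789, highest in pool 1. Of cyclic nucleotide genes 12 of 27 (44.4%) were hosts, and 11 of 16 (68.8%) of the long ones, led by the phosphodiesterase 1C ring described above.

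Transcription factor genes were hosts in 69 of 336 cases (20.5%), and in 61 of 115 (53.0%) among those of 10000 bases or more. Their 195 members held 6.82% to 7.32% of the class's signal, led by the caupolican ring. In this list 45.6% of members were listed in all 3 pools, beside 37.4% of the class, and the host median was 5.40 FPKM beside 16.6 over all hosts. Of cytoskeleton and motor genes 50 of 218 (22.9%) were hosts, and 47 of 86 (54.7%) of the long ones, with 217 members and 5.01% to 5.80% of the signal. The Shank3-like scaffold gene LOC726461 gave a ring of 1340 bases with 28528, 50162 and 36233.

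Among GTPase regulators, 16 of 56 genes (28.6%) were hosts, and all 16 are among the 23 that span 10000 bases or more (69.6%). A DOCK3-like exchange factor gene, LOC725928, gave the highest ring, with 28334, 41828 and 32515. The piezo channel gene LOC408427, a mechanosensor, gave 25582, 18646 and 17391, highest in pool 1, and the synaptic SAP47-like gene LOC726924 gave 22766, 27728 and 19427. In LOC408688, the Dscam-like gene, a ring of 2035 bases had 34732, 38812 and 28410 in a host of 7.65 to 11.2 FPKM.

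Chromatin, phosphatase and ubiquitin ligase genes were hosts at 13.9%, 13.3% and 13.0%, in that order. Among genes of 10000 bases or more, 11 of 25 chromatin genes were hosts, 12 of 22 phosphatase genes (54.5%) and 12 of 23 ubiquitin ligase genes (52.2%), beside 54.1% of all such genes. LOC408685, the histone H3 lysine-79 methyltransferase gene, gave a ring of 1252 bases with 27654, 31696 and 26154. The receptor phosphatase 99A-like gene LOC725294 gave 15904, 16246 and 14539, and the Rnf220-like ubiquitin ligase gene LOC725092 gave 2471, 2931 and 2089. No pool stood apart in any of the 3.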

How the data were processed

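Levels of circRNAs are the normalised signal SRPBM, which scales back-spliced reads to mapped reads and which the authors deposited per junction, with coordinates, strand and source gene. Host mRNA levels are the FPKM values the authors deposited per gene. The RPM values deposited by the authors for miRNAs served only for the miRNA hairpins. The submitters' processing notes name Bowtie, Bowtie2 2.0.6, TopHat2 2.0.9 and HTSeq 0.6.1. The step each served, the circRNA caller and the build are not given in the sources used here.

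Members were joined to hosts by gene name, and 1592 of 1626 host symbols were found in the RefSeq table of another assembly, used for names only. Detection is SRPBM above 0. Class levels are differences of median log2(value + 1) within a library, tested over the 3 libraries with two-sided exact sign-flip permutation tests, which cannot go below 0.25. Pool numbers in the labels link the 3 libraries of a pool, which holds ovaries of a single colony. Members with a mean SRPBM at or above the median of all junctions were called when the highest pool was at least 2 times the lowest, with no test. The scripts were tested on simulated data (Python 3.11.15, numpy 2.4.6, pandas 2.3.3, scipy 1.17.1).

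Named were the 15 highest members, the 5 hosts with most members (7 with ties) and the 5 with the highest sums, the 8 widest ratios and those listed at 0 in 1 pool among the top 10% of members, the highest member of each of the 14 host lists and the neighbours of each span limit. Other rings (second members of a list, hosts of very low or high FPKM, most shared ends, miRNA hairpins) were added after their values were seen. Lists were matched by product name, with some name collisions removed on annotation alone, and a gene may stand in more than one list. Regulators and associated proteins with a matching name remain. Among them are LOC413053, a kinase receptor-associated protein, in the kinase list and LOC408740, a phosphatase and actin regulator, in the phosphatase list. The members and lists were chosen with earlier results of these data known. Pseudocounts, level filters, span limits and leaving out each pool were tried as alternatives. Members are not replicates, and no set test was made.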

Additional observations from a re-analysis of the deposited data

How the results depend on the processing

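The excess over long circRNAs kept its direction under the pseudocounts and filters tried. The excess over short ones, 0.31, turned to -0.16 among junctions above 0 in all 3 libraries. Among junctions above 0 in the library at hand it was 0.03 ± 0.04 (SD, n = 3), with pool 2 at -0.01. With the highest ring per host, chosen after seeing the data, the excess was 0.63 over short and 0.23 over long circRNAs. A highest value also depends on the number of rings per host, which differed between classes and was not adjusted for. Members were 4947 rings of 1626 hosts, short circRNAs 2360 of 1338 and long ones 2396 of 586. The host difference of 0.04 turned to -0.10 among genes with a mean FPKM of 1 or more, and ran from -0.018 to 0.10 when 1 pool was left out, falling below 0 without pool 2. The cause was not tested. The differences are taken within a pool, a replicate block. With no replicate block, the exact permutation p was 0.2 for short, 0.1 for long and 0.5 for hosts. The smallest p that 3 libraries against 3 can give in this test is 0.1, so it could not fall under 0.05. Members detected per library fell from 3204 to 2529 when SRPBM at or above the 25th percentile of listed values was asked for. The class's share of signal was 58.1% with limits of 500 and 5000 bases, 37.4% with 2000 and 20000, and 49.6% without the 10 highest junctions. The rank correlation of ring level with host level, 0.062 on average, was 0.117 with a single value per host and, added later, 0.139 for members in all 3 pools. The count of 2-fold members was 1836 in the main setting. Replacing the level filter by a value above 0 in all 3 pools, which leaves out those listed at 0, gave 955 of 1852. That is 51.6%, beside 53.4% of all such junctions. At or above the 90th percentile of all junctions it was 157 of 614 (25.6%), beside 26.7% of all junctions. Without pools 1, 2 and 3 in turn it was 1287 of 2737 (47.0%), 1227 of 2799 (43.8%) and 1539 of 2867 (53.7%). All junctions gave 49.7%, 47.1% and 56.3% in the same order. The unknown depth leaves the meaning of a listed 0 unsettled, and 3 pools cannot give a p under 0.25 in the paired test.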

Other observations

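The small RNA libraries were set against the circRNAs by position. Of 152 known and 12 predicted miRNAs, 5 had a hairpin inside a middle-span circRNA on the same strand, in 7 rings. The hairpin of ame-miR-190 lies on LG13 from 9278012 to 9278111, inside a ring of 1725 bases from the talin-1-like gene LOC551272, which links integrins to actin. The ring had SRPBM of 4564, 6923 and 3175 in pools 1 to 3, and the miRNA had 7466, 5469 and 6176 RPM, reads scaled to a library total by the authors. Ring and miRNA did not share an order, since pool 2 was highest for the ring and lowest for the miRNA.

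The other 4 lay in rings listed in 1 or 2 pools. The miR-2796 hairpin is inside a ring of the phospholipase C epsilon-type gene LOC408804 with 0, 302 and 407 SRPBM, and the miRNA had 280, 171 and 242 RPM. The miR-3785 hairpin is inside 3 overlapping rings of LOC724417, none above 388 SRPBM in any pool, while the miRNA had 1347, 1521 and 2034 RPM. The ring of LOC726544, a regulatory subunit gene of protein phosphatase 4, holds the miR-71 hairpin on its own strand and that of miR-2b on the other, and was listed in pool 3 alone at 345 SRPBM. The ring of LOC411812, a Doa-like kinase gene, holds the miR-9891 hairpin and was listed in pool 1 alone at 626 SRPBM. A hairpin inside a ring's span can lie in an intron that the ring lacks, which was not tested.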
